A study of Danio rerio with 11 samples.

Results

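The 9 genes considered here encode the reception and response machinery of the Hedgehog pathway: ptch1, gli1, gli2a, gli2b, gli3, hhip, smo, sufu and olig2. They were taken by name from the deposited tables of zebrafish embryo RNA, which hold 14473 genes. Rows were present for 8 of the 9, all 8 passed the low-count filter that left 12301 tested genes, and ptch1 is not analysed here. The tables cover 11 whole embryos at about 25 hours post fertilization (hpf), raised at 29 °C, with 1 library per embryo. They are 6 rfx4 mutants (replicates 1, 3, 4, 5, 6 and 7) and 5 siblings labelled control (replicates 2, 3, 4, 7 and 8). The series design gives their parents as carriers of the allele rfx4uw8013, and the embryos were assigned to mutant or sibling by phenotype, so a sibling may be wild type or heterozygous. The growth protocol names carriers of zic2 mutations as parents, and this discrepancy could not be settled from the labels.

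Hedgehog ligands are secreted in the trunk by the notochord and by the floor plate, the ventral midline of the neural tube. A Patched receptor without ligand holds the transmembrane protein Smoothened inactive. Ligand binding frees Smoothened, and Gli transcription factors then act as activators in place of repressors. In the ventral neural tube the strength of this signal sets which progenitor genes are on, and in zebrafish somites it specifies slow muscle. Transcription of gli1 and hhip is itself induced by the pathway, so their RNA is commonly read as its response. The comparison of mutants with siblings asks whether that response is lower where ligand RNA is lower.

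Total counts ran from 16238368 to 21104811 per embryo, and edgeR's quasi-likelihood test called 0 of 12301 genes at an adjusted p under 0.05, or 0.0%, with 843 genes (6.85%) at an unadjusted p under 0.05. DESeq2 called 44 genes (0.358%) and limma-voom 2. Transcripts of rfx4, the mutated gene, were present in every mutant. Its counts were 589, 706, 623, 605, 905 and 942 in mutants 1, 3, 4, 5, 6 and 7, against 1383, 1221, 857, 951 and 1172 in siblings 2, 3, 4, 7 and 8. Mutants 1, 3, 4 and 5 lay below every sibling, and mutants 6 and 7 lay within the sibling range. The log2 fold change of rfx4 was −0.53 ± 0.14 (SE), with an unadjusted p of 0.00274 and an adjusted p of 0.475 by edgeR. With that overlap, this RNA tells little about whether each label is right. Marker genes of notochord, floor plate, neural tissue and muscle had counts in all 11 embryos, with 22 the lowest count of any.

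None of the 8 members was called in mutants by edgeR, DESeq2 or limma-voom. Each of these tests gave gli2a an unadjusted p under 0.05, and it was the only member at that level, which 6.85% of all tested genes reached by edgeR (3.79% higher in mutants and 3.06% lower) and 6.99% by DESeq2 (3.77% higher and 3.22% lower). By edgeR gli2a was not at that level without sibling 4. Nor was it with the replicate number as a block, at a log2 fold change of 0.18, in a fit informed only by embryos of the shared numbers 3, 4 and 7. By edgeR without a block, olig2 was at that level without mutant 5, mutant 7, sibling 2 or sibling 4, and gli2b without sibling 8. Fitted values were higher in mutants for 6 members and lower for 2, gli3 and olig2, with a median log2 fold change of 0.05 beside 0.0009 over all tested genes. The mutant and sibling ranges of expression in CPM (counts scaled to a common, TMM-normalised library size) overlapped for all 8 members, while 0.943% of all tested genes had ranges that did not overlap (0.455% higher in mutants and 0.488% lower). The adjusted p of the members by edgeR ran from 0.672 for gli2a to 0.993 for sufu.

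**Figure D1:**
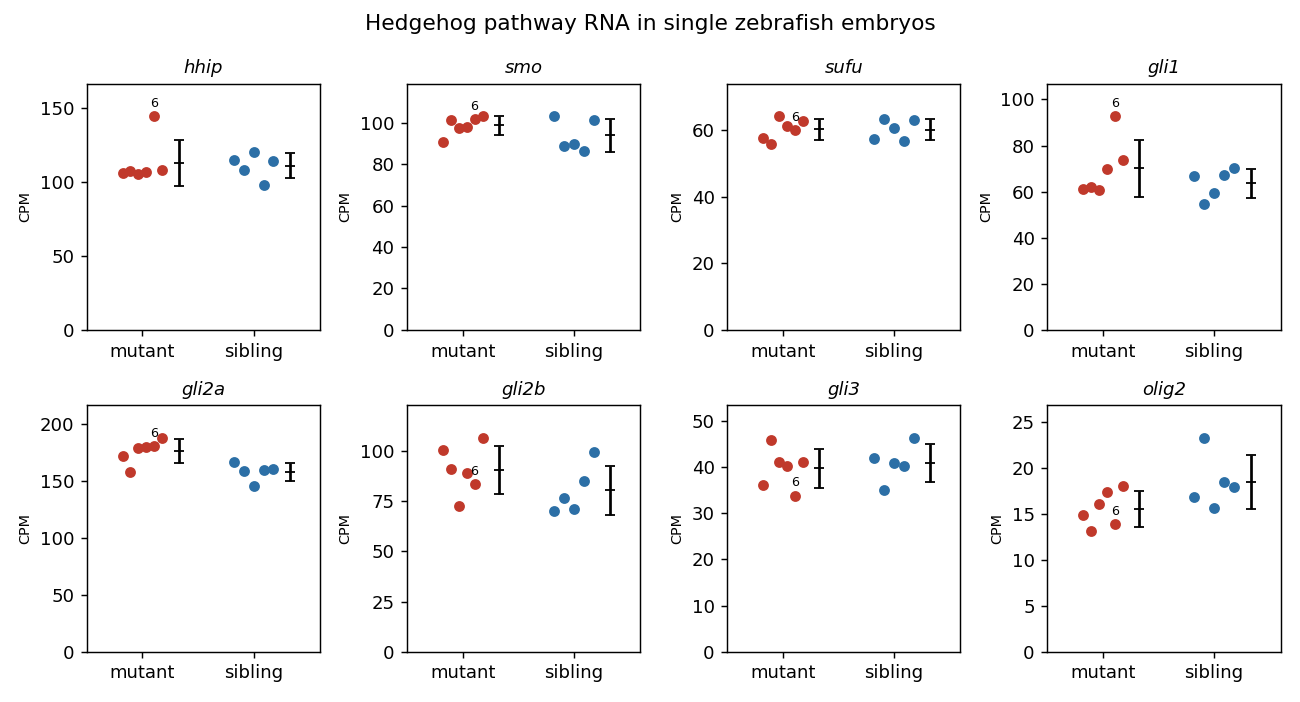
Expression in CPM (vertical axes, each starting at 0) of the 8 members in 6 mutant embryos (red, left) and 5 sibling embryos (blue, right). Points are single embryos, the bars are the group mean with SD, and the numeral marks mutant 6, which was the highest of all 11 embryos for hhip and gli1.

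At the cell surface, hhip encodes a membrane protein that binds Hedgehog ligands and limits their reach. Its lowest, median and highest expression was 105, 107 and 144 CPM in mutants, against 114, 108, 120, 98.1 and 114 CPM in siblings 2, 3, 4, 7 and 8. The other 5 mutants lay within a narrow band, between 105 and 108 CPM, and mutant 6 at 144 CPM stood above every other embryo. The log2 fold change was 0.03 ± 0.09 (SE), with a 95% interval of −0.17 to 0.22, and p was 0.879 in a two-sided exact permutation test that takes all 462 splits into 6 and 5. Without mutant 6 the log2 fold change was −0.06.

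The transducer gene smo, which encodes Smoothened, was at 98.7 ± 4.51 CPM over the 6 mutants, against 93.9 ± 7.82 CPM over the 5 siblings (mean ± SD). The lowest and highest values were 90.8 and 103 CPM among mutants, against 86.3 and 103 CPM among siblings. The fold change was 0.07 ± 0.06 (SE) on the log2 scale, with a 95% interval of −0.06 to 0.21. Expression of sufu, which encodes a cytoplasmic inhibitor that holds Gli proteins in check, was close to even between the groups. It was at 60.4 ± 3.14 CPM over the 6 mutants, against 60.2 ± 3.07 CPM over the 5 siblings (mean ± SD), with a log2 fold change of 0.0027 and a 95% interval of −0.12 to 0.12. Neither gene separated the groups.

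Among the Gli factors, gli1 encodes an activator whose gene is a direct target of the pathway. Its expression was 61.0, 62.2, 60.7, 69.9, 92.9 and 73.5 CPM in mutants 1, 3, 4, 5, 6 and 7, against 66.7, 54.7, 59.2, 67.2 and 70.2 CPM in siblings 2, 3, 4, 7 and 8. Mutants 1, 3 and 4 lay among the siblings, as mutant 5 did, and mutants 6 and 7 lay above them. Mutant 6 was the highest of all embryos for gli1 and hhip, as for 16.5% of all tested genes. The log2 fold change was 0.14 ± 0.11 (SE), with a 95% interval of −0.11 to 0.38 and an exact permutation p of 0.344. It was 0.04 without mutant 6 and 0.09 without sibling 3.

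The gene gli2a, mutated in zebrafish you-too, encodes a Gli factor and had the smallest p of the members. Its lowest, median and highest expression was 158, 179 and 188 CPM in mutants, against 167, 158, 145, 159 and 160 CPM in siblings 2, 3, 4, 7 and 8. Mutant 3 lay within the sibling range and the other mutants lay above it. Its log2 fold change was 0.16 ± 0.06 (SE), a level 111% of that in siblings, with an unadjusted p of 0.0183 and an adjusted p of 0.672 by edgeR. The exact permutation p was 0.0152. At an unadjusted p under 0.05, 3.79% of all tested genes were higher in mutants, the background for this 1 member of 8.

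The paralog gli2b was at 90.6 ± 12.2 CPM over the 6 mutants, against 80.5 ± 12.2 CPM over the 5 siblings (mean ± SD), with ranges of 72.5 to 107 and 70.3 to 99.5 CPM. Its log2 fold change was 0.17 ± 0.11 (SE) with an exact permutation p of 0.186, and it was 0.26 without sibling 8, the highest sibling. Expression of gli3, which encodes a factor that acts mainly as a repressor in the absence of ligand, was 39.7 ± 4.24 CPM over the 6 mutants, against 40.9 ± 4.07 CPM over the 5 siblings (mean ± SD). Mutant 6 was the lowest embryo for gli3, at 33.8 CPM, and its log2 fold change was −0.04 ± 0.09 (SE), with a 95% interval of −0.23 to 0.15.

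The last member, olig2, encodes a basic helix-loop-helix factor of the ventral progenitors that give motor neurons and oligodendrocytes and depends on Hedgehog signal. Its expression was 14.8, 13.1, 16, 17.3, 13.9 and 18 CPM in mutants 1, 3, 4, 5, 6 and 7, against 16.9, 23.3, 15.6, 18.5 and 17.8 CPM in siblings 2, 3, 4, 7 and 8. Mutants 1, 3 and 6 were below every sibling, and the other 3 mutants were among the siblings. The log2 fold change was −0.25 ± 0.11 (SE), a level 84.2% of that in siblings, with an unadjusted p of 0.05 and an adjusted p of 0.729 by edgeR and an exact permutation p of 0.0693. Sibling 3 was the highest embryo, and without it the log2 fold change was −0.15. In whole embryos, fewer olig2 cells and less olig2 RNA per cell cannot be told apart.

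Levels can be compared between genes only per transcript length, for which the deposited TPM values (values scaled for transcript length) were used. In that unit smo was the most abundant member, at 51.3 ± 2.81 TPM in mutants (SD, n = 6) and 47.9 ± 5.35 TPM in siblings (SD, n = 5). It was followed by gli2b (43.9 ± 5.95 TPM in mutants and 38.5 ± 8.14 TPM in siblings) and gli2a (43.2 ± 2.14 TPM in mutants and 38.0 ± 2.48 TPM in siblings). Next came hhip, at 36.7 ± 5.4 TPM in mutants and 35.3 ± 3.48 TPM in siblings, and sufu, at 32.9 ± 0.886 TPM in mutants and 32.2 ± 1.94 TPM in siblings. These 5 genes overlapped with their neighbours in the order in both groups. A gap followed, and gli1 (22.1 ± 4.06 TPM in mutants and 19.7 ± 2.26 TPM in siblings), olig2 (14.2 ± 1.6 TPM in mutants and 16.5 ± 2.39 TPM in siblings) and gli3 (11.7 ± 1.33 TPM in mutants and 11.8 ± 1.42 TPM in siblings) formed the lower end. The order of the means was the same in mutants and siblings. Neighbours at the lower end differed between the groups in one respect, since olig2 overlapped with gli3 only in mutants and with gli1 only in siblings.

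**Figure D2:**
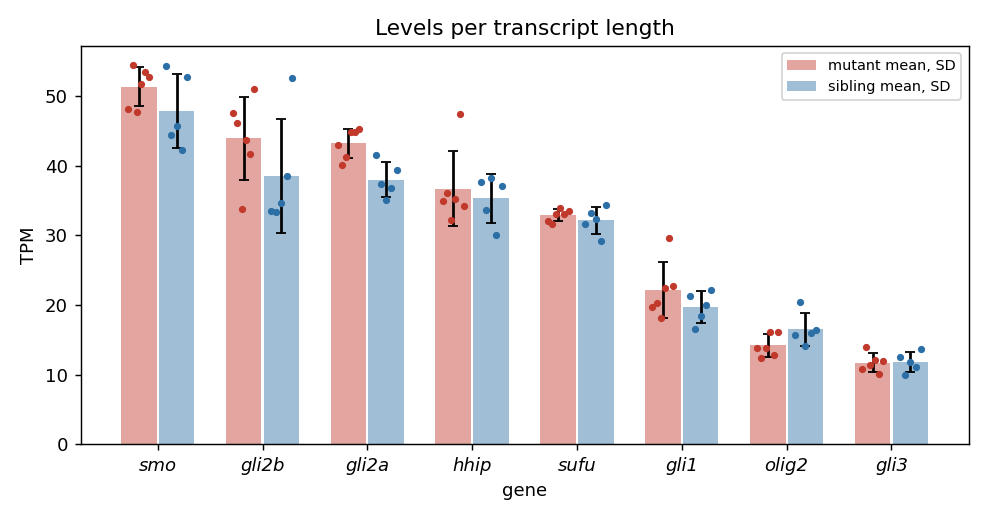
Level per transcript length (TPM, vertical axis from 0) of the 8 members, ordered by their sibling mean, in mutants (red, left bar) and siblings (blue, right bar). Bars are means, lines are SD and points are embryos. The 5 genes from smo to sufu lie above gli1, olig2 and gli3 in both groups.

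Counting error was small beside the differences between embryos for most members. The coefficient of variation of gli1 between embryos was 17.6% in mutants and 10.1% in siblings, where counting alone would give 2.87% and 2.92%. For sufu it was 5.2% in mutants and 5.10% in siblings, against 3.09% and 3.00% from counting. With a mean count of 269.8 in mutants and 343.8 in siblings, olig2 had 6.09% and 5.39% from counting out of 12.5% and 15.8% between embryos.

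The ligand shha, made by notochord and floor plate, was at 35.0, 37.8 and 53.9 CPM in mutants (lowest, median and highest), against 50.7, 52.1, 50.1, 56.4 and 47.7 CPM in siblings 2, 3, 4, 7 and 8. Mutant 6 was the only mutant within the sibling range, and the other 5 mutants lay below it. The second sonic ligand, shhb, was at 5.28, 6.33, 5.69, 5.25, 14.6 and 6.35 CPM in mutants 1, 3, 4, 5, 6 and 7, against 10.7, 10.6, 9.74, 9.13 and 11 CPM in siblings 2, 3, 4, 7 and 8. Mutant 6 was above every sibling, and the other 5 mutants were below. The log2 fold changes were −0.35 ± 0.11 (SE) for shha and −0.50 ± 0.24 (SE) for shhb, with adjusted p of 0.601 and 0.743 by edgeR. Without mutant 6 they were −0.45 (adjusted p = 0.0288) and −0.82 (adjusted p = 0.00300), and the 8 members included 0 calls there too, in a comparison where 0.196% of genes were called. At an unadjusted p under 0.05 there was again 1 member, gli2a, beside 6.78% of all genes (3.57% higher and 3.22% lower). The choice of the embryo left out was made after its values were seen.

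The floor plate markers foxa2, foxj1a, ntn1b, spon1b and arxa were each fitted lower in mutants, as shha and shhb were. In log2 fold change they ran from −0.99 for ntn1b to −0.11 for foxj1a and −0.0041 for arxa. They summed to 99.3, 110 and 153 CPM in mutants (lowest, median and highest) and to 141, 154 and 164 CPM in siblings, with mutant 6 the highest mutant, and 3 of the 5 had an unadjusted p under 0.05 by edgeR, where 3.06% of all tested genes were lower at that level. The 3 notochord markers other than shha (ntla, flh and col2a1a) summed to a median of 1860 CPM in mutants and 1406 CPM in siblings, with ranges of 1037 to 2040 and 1202 to 2023, and none was at 0. At the same level were 1 of these 3 notochord markers, flh, and 1 of 4 muscle markers, myod1 (unadjusted p = 0.0498 by edgeR). Both were higher in mutants, where 3.79% of all tested genes were higher at that level. Of 4 neural markers 1 was at that level, neurog1, lower in mutants. Muscle markers summed to 4105 to 8366 CPM in mutants and 4830 to 8097 CPM in siblings, and neural markers to 578 to 767 CPM in mutants and 636 to 763 CPM in siblings. Mutant 6, the library that was highest for gli1, hhip and shhb, had the lowest notochord and neural sums and the highest muscle sum of all 11 embryos. The sums are led by abundant genes, such as col2a1a, at a mean of 1636 CPM in mutants beside 2.49 CPM for flh. Single markers did not all follow the sums in mutant 6. Its count of col2a1a, 16495, was the lowest of any embryo, while its count of flh, 45, was above the highest sibling count, 44. Among muscle markers its count of myog, 798, was the lowest of the mutants. The part of these tissues in the ligand and member values was not tested.

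The fold change of each member relative to the ligand in the same embryo was tested as the difference of their log2 CPM, in which the scaling of libraries nearly cancels. All 16 such differences, for 8 members and both ligands, were higher in mutants, as were 97.5% of all tested genes relative to shha and 99.2% relative to shhb, and 12 of them had p under 0.05 in the two-sided exact permutation test, 6 for each ligand. The pairs share 2 ligand values per embryo and so are not independent. Against shha, the exceptions were gli3 (p = 0.113, exact) and olig2 (p = 0.457, exact). The background was large: relative to shha 48.0% of all tested genes were higher in mutants at this level, and relative to shhb 38.1%, while 0.13% and 0.0813% were lower. With adjustment over all tested genes no pair passed (adjusted p of 0.0650 at the lowest), and 0.0% of all genes did.

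**Figure D3:**
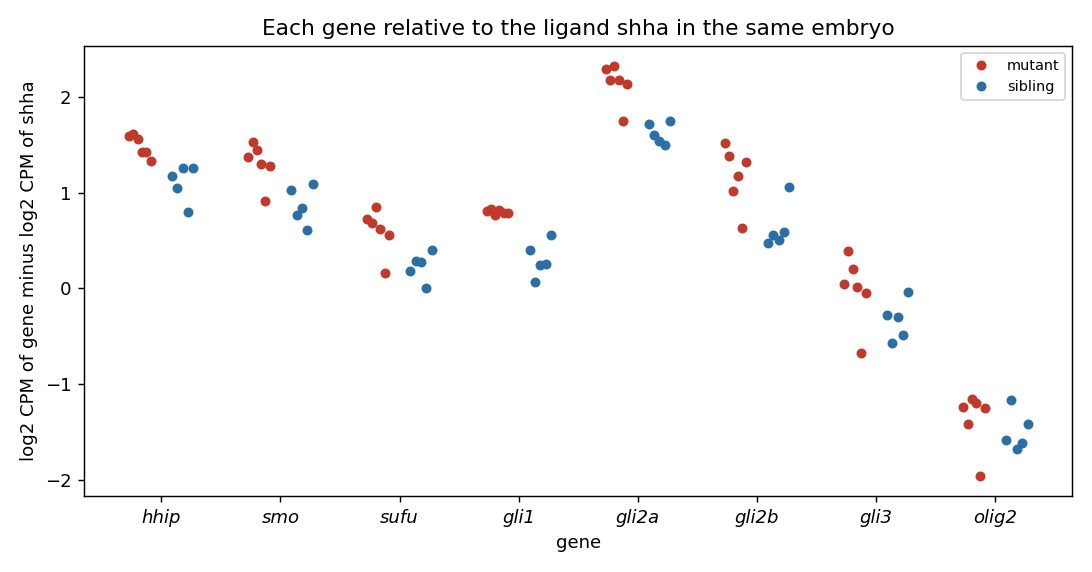
Log2 CPM of each member minus log2 CPM of the ligand shha in the same embryo (vertical axis), for 6 mutants (red, left of each pair) and 5 siblings (blue, right). Points are embryos. For gli1 the 6 mutants lie between 0.76 and 0.83, above siblings at 0.07 to 0.56.

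For gli1 the difference to shha varied less among mutants than that of any other tested gene. It was 0.80, 0.83, 0.76, 0.82, 0.79 and 0.78 in mutants 1, 3, 4, 5, 6 and 7, against 0.40, 0.07, 0.24, 0.25 and 0.56 in siblings 2, 3, 4, 7 and 8. All mutants were above all siblings, by 0.49 on average (p = 0.00216, exact, the smallest that 6 against 5 embryos allow), and 7.04% of all genes relative to shha separated the groups in this direction. In mutants the SD of this difference was 0.025, and 0 of the other tested genes had a smaller SD relative to shha in the mutants. In siblings it was 0.18, with 5960 tested genes (48.5%) more even. Counting error alone would give an SD of 0.068 in mutants, above the value seen, so the 6 values lie closer together than their counts can resolve. This pair was singled out after its values were seen.

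The hhip difference to shha separated the groups as well, as did 7.04% of all genes relative to shha in this direction. Its values lay between 1.33 and 1.62 in mutants, against 0.80 to 1.26 in siblings, a mean difference of 0.38 (p = 0.00216, exact). No member separated the groups relative to shhb, where 1.4% of all genes did.

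Across embryos, 16 relations of the 8 members with 2 ligands were examined. Over all 11 embryos gli1 and shha had a Pearson r of 0.28 (permutation p = 0.423, adjusted 0.678) and a Spearman rho of 0.18 (permutation p = 0.594, adjusted 0.952), and r was 0.15 without mutants 1 and 3, which were farthest from the median of shha. Without mutant 6 it was 0.026 over the remaining mutants and siblings together. Within the 6 mutants r was 0.99 (exact p = 0.00833, adjusted 0.133) and rho 0.77 (exact p = 0.103, adjusted 0.411). Within the mutants without mutant 6, r was 0.98. With the group means removed from both, r was 0.80 over mutants and siblings pooled, and none was computed within the siblings alone. For gli1 and shhb, r within the mutants was 0.88, and 0.23 without mutant 6. Of the other tested genes, 0 had as high an r with shha in the mutants, as a description of these 6 libraries. Over all 11 embryos hhip and shhb had r of 0.66 (permutation p = 0.0126, adjusted 0.202) and rho of 0.76 (permutation p = 0.00834, adjusted 0.133), and r was 0.67 without mutants 1 and 5. Leaving out mutant 6 gave r of 0.44 for this pair. None of the 16 relations passed after adjustment.

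**Figure D4:**
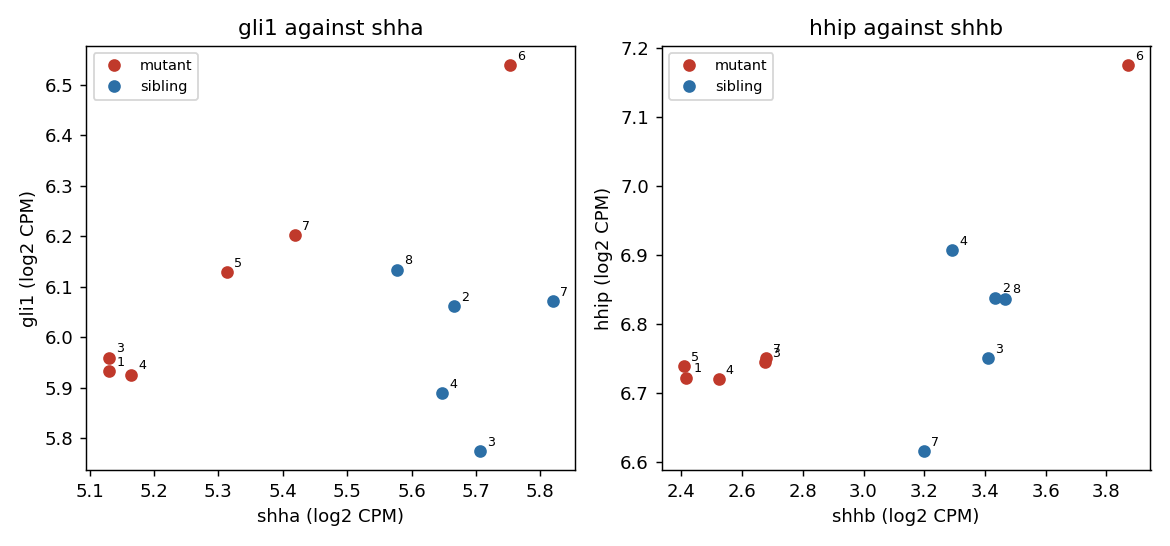
Left, gli1 against shha, and right, hhip against shhb, in log2 CPM (both axes, not from 0) for 6 mutants (red) and 5 siblings (blue), labelled by replicate number. Mutant 6 is at the upper right in both plots, and 5 mutants lie at lower ligand values than the siblings.

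In likeness to gli1 over the 11 embryos, hhip stood at rank 350 of 10627 genes, with r of 0.64. The 5 genes most like gli1 were neo1 (r = 0.95), ubl3a (0.95), snapc4 (0.92), faf2 (0.91) and dag1 (0.90), by Pearson r of log2 CPM over 11 embryos among 10628 genes with a mean count of at least 50. The 5 most like olig2 were hes6 (0.92), rnf7 (0.91), tmsb (0.91), cirbpa (0.91) and zc4h2 (0.90). These correlations describe the 11 libraries and share their depth and their split into mutants and siblings.

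The rest of the pathway was read from lists, some of which share genes. Of 11 genes for release and reception of ligand, all 11 were tested; fitted values were higher for 10 and lower for 1 (median log2 fold change 0.11). Of these, 2 had an unadjusted p under 0.05 and both were higher, where 3.79% of all tested genes were higher at that level. They were sulf1, which encodes a heparan sulfatase (0.20 ± 0.05 SE, adjusted p = 0.491 by edgeR), and disp1, which encodes the release protein Dispatched (0.25 ± 0.10 SE, adjusted p = 0.700 by edgeR). Expression of sulf1 was 161 ± 8.24 CPM over the 6 mutants, against 141 ± 6.60 CPM over the 5 siblings (mean ± SD), with no overlap, as was so in this direction for 0.455% of all tested genes. Of 28 transduction genes, 23 were in the tables, with 13 fitted higher and 10 lower and a median log2 fold change of 0.01. The one with an unadjusted p under 0.05 was prkar1aa, a regulatory subunit of protein kinase A, at 0.17 ± 0.07 SE (adjusted p = 0.684 by edgeR). This 1 of 23 stands beside 6.85% of all tested genes, and without mutant 6 the count was 0.

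**Figure D5:**
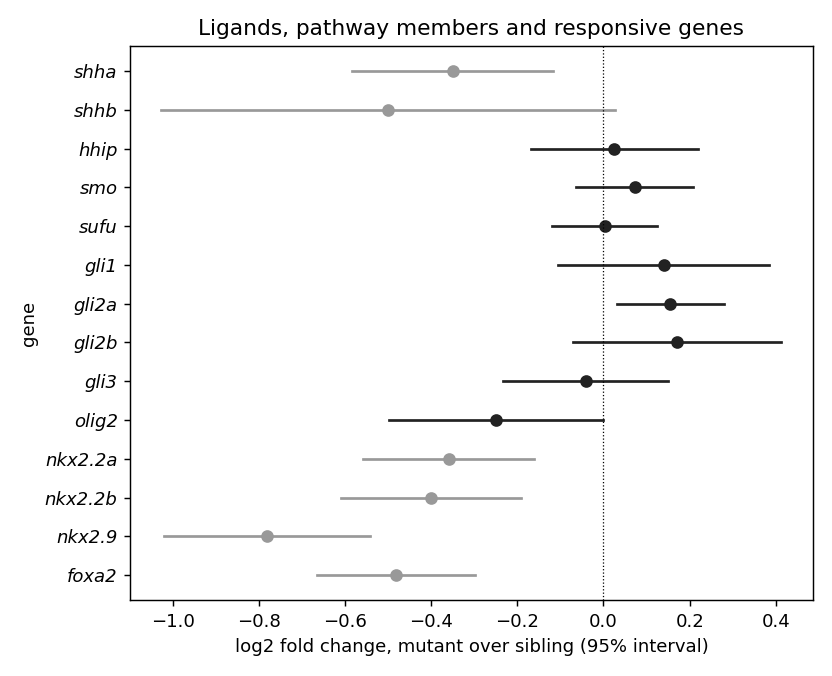
Log2 fold change of mutant over sibling (horizontal axis, linear from −1.0 to 0.4) with 95% intervals, from edgeR over 11 embryos, for members (black) and other genes of the pathway (grey). Intervals of the 8 members include 0 except for gli2a, and olig2 ends at 0, while those of shha, nkx2.2a, nkx2.2b, nkx2.9 and foxa2 lie below it.

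Of 15 genes known to respond to Hedgehog signal, 10 were fitted lower and 5 higher (median log2 fold change −0.08), and edgeR called 0 of them. DESeq2 called 3, namely nkx2.9 (adjusted p = 1.11e-06), foxa2 (adjusted p = 0.000554) and nkx2.2b (adjusted p = 0.0497), where it called 0.358% of all tested genes. By limma-voom nkx2.9 alone of the list was called (adjusted p = 0.0447), where 2 of 12301 genes were called. Without mutant 6 edgeR called nkx2.9 too (adjusted p = 0.00524), where 0.196% of all tested genes were called. At an unadjusted p under 0.05 there were 4, all lower, where 3.06% of all genes were lower at that level. These were the ventral neural tube factors nkx2.9 (−0.78 ± 0.11 SE), nkx2.2b (−0.40 ± 0.10 SE) and nkx2.2a (−0.36 ± 0.09 SE), and the floor plate factor foxa2 (−0.48 ± 0.09 SE). The list was chosen with their values known, so they are no independent support. Among them foxa2 is also counted with the floor plate markers above. For these genes too, fewer cells and less RNA per cell cannot be told apart in whole embryos. Expression of nkx2.9 was 6.23, 6.49, 6.07, 5.72, 8.07 and 8.19 CPM in mutants 1, 3, 4, 5, 6 and 7, against 11.5, 12.9, 11.5, 11.5 and 11 CPM in siblings 2, 3, 4, 7 and 8. All mutants were below all siblings, mutant 6 included. That of foxa2 was 13.3, 17.9, 15, 16.1, 15.9 and 17.9 CPM in mutants 1, 3, 4, 5, 6 and 7, against 21.3, 22.6, 22.6, 24.5 and 20.8 CPM in siblings 2, 3, 4, 7 and 8. These groups did not overlap either, as was so in this direction for 0.488% of all tested genes. For nkx2.2b the ranges overlapped, at 9.27 to 12.7 CPM in mutants and 12.4 to 15.5 CPM in siblings. Expression of nkx2.2a was 13, 14.2 and 18.3 CPM in mutants (lowest, median and highest), against 20.6, 19.2, 17.2, 18.2 and 19.6 CPM in siblings 2, 3, 4, 7 and 8, and the groups overlapped. Whether the 4 genes differ from gli1 or hhip in their change was not tested.

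The list of motor neuron and oligodendrocyte genes also holds the progenitor factors nkx6.1, olig3 and olig4. Of its 14 tested genes 10 were fitted higher and 4 lower, these 3 among the 4 lower (median log2 fold change 0.13), and 0 had an unadjusted p under 0.05 by edgeR. The lowest p were those of slc18a3a, the vesicular acetylcholine transporter of cholinergic neurons (0.24 ± 0.11 SE), and sox10, a factor of neural crest and oligodendrocytes (0.16 ± 0.08 SE). Among 8 tested neural tube genes that Hedgehog signal represses, 5 were higher and 3 lower with a median of 0.02. The lowest p were those of dbx1b (−0.10 ± 0.07 SE) and dbx1a (0.09 ± 0.11 SE). In the list of 6 slow muscle genes, 3 were higher and 3 lower, with a median of 0.01, and the lowest p were those of eng2a (−0.22 ± 0.11 SE) and prox1a (0.17 ± 0.08 SE). The log2 fold change of smyhc1 in this list was 0.03 ± 0.08 SE. In whole embryos the tissue that gave these RNAs was not resolved.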

How the data were processed

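Per the series design and the labels' protocols, each embryo's RNA went into its own library (Illumina TruSeq kit v2), a chemistry that does not mark strand. The authors deposited estimated counts, already whole numbers, and TPM values scaled for length for 14473 genes. RSEM 1.2.18 is named in the submitters' processing notes, as are Bowtie 1.1.1, CASAVA 1.8.2 and the genome build Zv9; no roles or annotation are stated there. The main test was the quasi-likelihood test of edgeR 4.0.16 under R 4.3.3 (TMM, filterByExpr, Benjamini-Hochberg over 12301 genes). Log2 CPM used a prior count of 1. Correlations used 100000 resamples. DESeq2 1.42.0 and limma 3.58.1 were alternatives. The members and lists were chosen with earlier results of these data known. Named genes were all members, and from each list those at an unadjusted p under 0.05, or otherwise the 2 of lowest p. In simulated counts of 12301 genes, with 50 genes planted at each fold change, edgeR recovered 11 of those changed 1.3-fold and 31 changed 1.5-fold. It recovered 45 changed 2-fold and 48 changed 4-fold, with 9 false calls. The planted genes eased the adjusted cutoff. In the real data edgeR called 0 genes, so its cutoff was stricter and these rates do not carry over to it. Chi-square tests of 25 pairs of libraries within groups gave at least 7.79 for each degree of freedom, so no pair agreed within sampling noise. Pairs with sibling 3 ran from 49.3 to 69.2, and the other sibling pairs from 9.43 to 20.5. Pairs with mutant 6 or mutant 7 ran from 32.3 to 73.7, and the other mutant pairs from 7.79 to 25.5. Embryos are separate animals. A gene of the planned lists is not reported here. The member and ligand differences were adjusted over all tested genes, a change from the planned adjustment over the pairs. No sequence is printed and promoter motifs were not analysed here. Figures were drawn with matplotlib 3.10.9.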

Additional observations from a re-analysis of the deposited data

Results flagged for a closer look

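Mutant 6 stood far from the other 5 mutants in hhip, at 7.18 log2 CPM with the next mutant at 6.75, and the gap was 0.93 of the whole range. It did so in the ligand shhb too, at 3.87 log2 CPM with the next mutant at 2.68 and a gap of 0.81 of the range. Both gaps exceed the 0.625 that applies to 6 samples. In all, 20 groups of embryos were examined, for the 8 members, shha and shhb, and chance alone would mark about 1 in 20. Mutant 6 was the highest of the 11 embryos for 2 of the 8 members, gli1 and hhip, where it was so for 16.5% of all tested genes.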

How the results depend on the processing

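Across 20 alternatives, 0 members were called in any, and the adjusted p of the members ran from 0.436 to 0.9996. Of 160 such fold changes, 150 kept their direction. The number of genes called was 44 with DESeq2 and 2 with limma-voom, and ran from 0 to 24 when an embryo was left out (24 without mutant 6, 1 without sibling 7). The members near 0 turned: gli3 was at 0.14 with the replicate number as a block and between −0.093 and 0.0083 when an embryo was left out, hhip at −0.020 with the block and between −0.058 and 0.055, and sufu between −0.018 and 0.029. The block rests only on the embryos whose numbers, 3, 4 and 7, occur in both groups, and the other embryos do not inform its fold changes. The cause of the turns when an embryo was left out was not tested. Whether numbers shared by mutants and siblings pair the embryos is not settled. Correlations of deviations from the group mean were −0.31, −0.19 and −0.14 for numbers 3, 4 and 7. The siblings that correlated best with mutants 3, 4 and 7 were 8, 7 and 3. These values have no reference to set them against. The block gave 0 calls, with few embryos behind that count. With pairs of member and ligand, 10 to 15 of 16 had an exact p under 0.05 when an embryo was left out. With no embryo left out, 48.0% of all tested genes relative to shha were higher in mutants at this level, and 38.1% relative to shhb. The pairs share their ligand values and so are not independent. Without mutant 6, chosen after seeing the data, genes at an unadjusted p under 0.05, 6.78% of all, numbered 2 of 5 ligands (both lower), 4 of 11 for release and reception (3 higher and 1 lower), 0 of 23 for transduction, 5 of 15 responsive genes (all lower), 0 of 14 for motor neurons and oligodendrocytes, 1 of 8 repressed genes (higher) and 1 of 6 slow muscle genes (lower). The slow muscle gene was eng2a, which is also 1 of the 5 responsive genes. The motif search in promoters was not run.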

Other observations

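The other Hedgehog ligand genes were low. Expression of ihha was 2.94 ± 0.77 CPM over the 6 mutants, against 3.04 ± 0.57 CPM over the 5 siblings (mean ± SD), and of ihhb 2.96 ± 0.43 CPM in mutants, against 2.78 ± 0.29 CPM in siblings. The desert ligand gene dhh varied most between embryos, with counts of 0, 7, 21, 26, 1 and 29 in mutants 1, 3, 4, 5, 6 and 7, against 16, 15, 3, 20 and 16 in siblings 2, 3, 4, 7 and 8. Their log2 fold changes were −0.05 ± 0.20, 0.09 ± 0.14 and 0.10 ± 0.70 (SE) for ihha, ihhb and dhh.

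The olig2 relatives olig3 and olig4 were tested with the motor neuron genes. Expression of olig3 was 41.3 ± 5.35 CPM over the 6 mutants, against 42.6 ± 4.44 CPM over the 5 siblings (mean ± SD), with a log2 fold change of −0.05 ± 0.10 (SE). That of olig4 was 31.4 ± 3.86 CPM in mutants and 33.2 ± 3.4 CPM in siblings, with −0.08 ± 0.10 (SE). Counts of olig1 were between 0 and 3 in every embryo.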
